A study of Mus musculus with 4 samples.

Results

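The RNA-binding proteins that are induced by cold and the factors that govern alternative splicing were compared between objective day and subjective day in the mouse eye. The 10 genes were Cirbp, Rbm3, Srsf2, Srsf3, Srsf5, Srsf6, Srsf7, Tra2a, Clk1 and Clk4, found by their symbols among the 22863 genes of the table, and each symbol matched 1 row. All 10 passed the filter on low values, as did 17784 genes of the table in all. Eyes came from melatonin-proficient C3H/f+/+ mice (labelled C3H), a line free of the Pde6b mutation that makes the original C3H strain lose its rods. The subjective day mice were taken at CT 6 after 18 hours in darkness (another passage of the study gives 30 hours). The objective day mice had seen the light of their 12-hour day and were then held in darkness for 1 hour before collection at ZT 6. Each condition had 2 samples, and each sample pooled 4 eyes. The anterior eye and the lens had been removed, so that a sample held retina, retinal pigment epithelium, choroid and posterior sclera together.

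CIRBP and RBM3 are small proteins with a single RNA recognition motif, and their mRNAs rise when body temperature falls by a few degrees. The daily temperature rhythm is enough to drive them, and both proteins act on the choice of polyadenylation site and on RNA stability. SR proteins carry an RNA recognition motif and a tail rich in arginine and serine, bind exonic enhancers and promote the inclusion of exons. CLK1 and CLK4 are nuclear kinases that phosphorylate this tail and release SR proteins from nuclear speckles, and CLK activity itself falls with rising temperature within the physiological range. Many genes of this network keep their own level in check by splicing in a premature stop codon or by retaining introns, so that total mRNA and productive mRNA need not move together.

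The comparison asks what light before noon changes when the phase of the clock is held the same. As deposited, 5 of the 8 splicing genes were called lower in objective day and neither cold-inducible gene was called. Values were taken to be gene counts scaled by the authors to equal library sizes, and a log2 fold change is objective over subjective day on the scale of log2(value + 1). Of the 10 genes, 5 were called lower and 0 higher when p values from limma were adjusted over all genes and held to 0.05, against 7.45% of all genes tested called lower and 1.06% called higher. The 5 were Srsf2, Srsf3, Srsf6, Clk1 and Clk4, with changes between -18.6% (Srsf6) and -27.2% (Srsf3). All 10 fold changes were below 0, and their median log2 fold change was -0.26 against 0.015 over all genes tested. Both objective day values lay under both subjective day values for 9 of the 10, against 28.2% of genes. The transcripts of 8 of the 10 genes have a GC content of at most 45%, as in the lowest quartile of tested genes, in which 26.0% of genes were called lower and the median log2 fold change was -0.26. After the trend of each sample with GC content was removed, 1 gene, Srsf2, was still called lower (against 0.661% of genes), 5 fold changes were above 0 and the median was 0.0036. With a constant variance prior limma called 0 of the 10 genes and 0 of all genes tested. With either objective day sample left out, fewer of the 10 were called, as were fewer genes over the whole table. Counts given below for related lists without an objective day sample are to be read beside that fall. In these pieces of tissue, fewer cells of a type and less RNA per cell cannot be told apart.

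**Figure D1:**
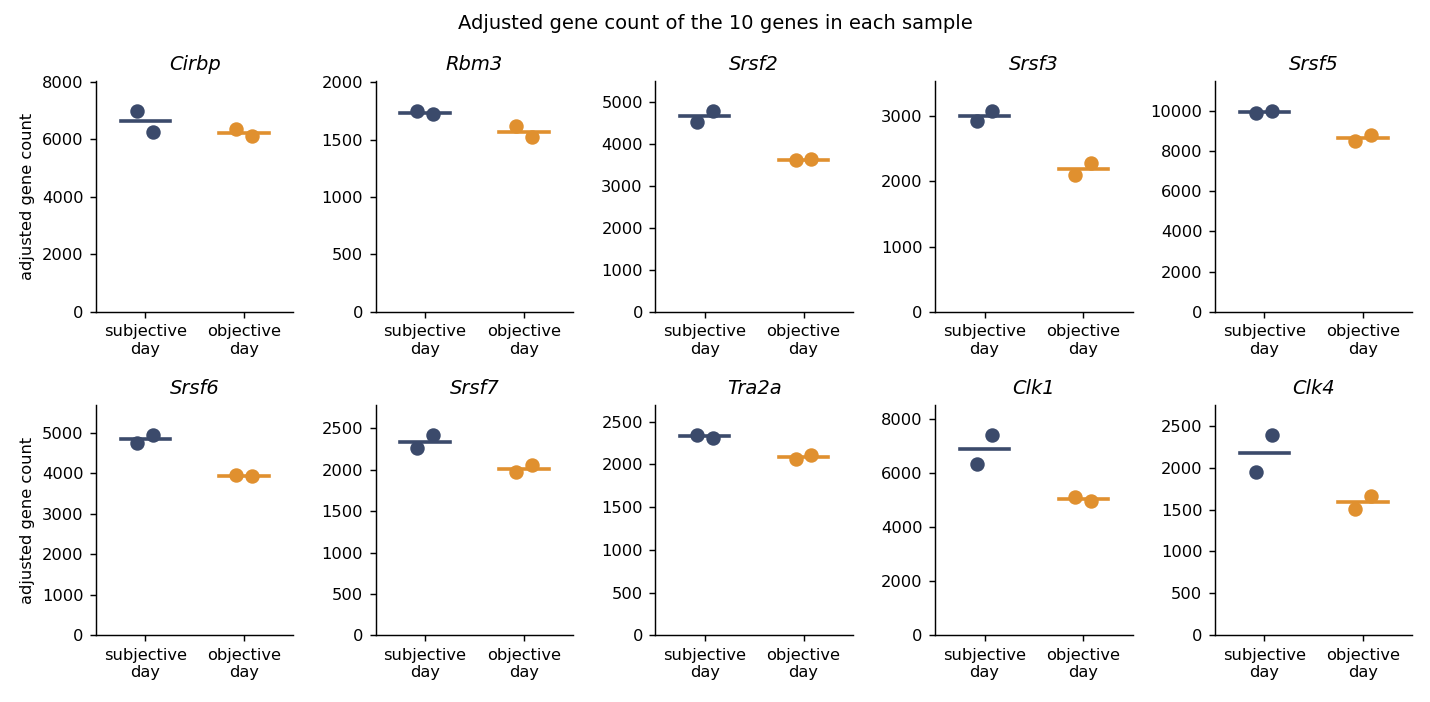
Adjusted gene count (vertical axis, starting at 0 and scaled for each gene) of the 10 genes in the 2 subjective day samples (dark points) and the 2 objective day samples (orange points), with lines at the group means. The 2 conditions are apart in every panel except that of Cirbp, where the subjective day value of 6257 lies under the objective day value of 6346.

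Across the table, the 4 columns summed to between 33278417 and 35236783. The rod genes Gnat1, Pde6a, Pde6g, Sag, Nrl and Cnga1 were all abundant and together came to 1053591 and 926929 under subjective day and to 1218994 and 1091601 under objective day. Of the 5 markers of the retinal pigment epithelium, Best1 was near 0 with a mean of 3.37, and the list summed to 42751 to 50239 in subjective day and 41595 to 47240 in objective day. Among them Rpe65, the isomerase of the visual cycle, was called lower. Its values were 8708 and 7242 in the subjective day samples against 5992 and 5121 in those of objective day. The log2 fold change of Rpe65 was -0.52 (limma adjusted p = 0.0286), and -0.25 after the GC trend was removed (limma adjusted p = 0.421). By quantitative RT-PCR on a separate set of replicates, the study also reported lower Rpe65 in objective day. The 4 keratins of the ocular surface came to 9809 and 10217 under subjective day and to 2751 and 5076 under objective day, with Krt12 near 0 (mean 6.50) and Krt5, Krt14 and Krt15 called lower, at log2 fold changes from -1.46 to -1.28, as they also were with the GC trend removed. The 5 lens genes were high in replicate 1 of both conditions and low in replicate 2, at 39047 and 5016 in the subjective day samples against 45790 and 11972 in those of objective day. Blood genes (1234 and 1395 against 1939 and 2198; 3 of 5 in the table), stromal genes (15359 and 9920 against 12535 and 11018) and extraocular muscle genes (39945 and 40093 against 36724 and 41633) are given in the same order of conditions. Of these, the globin gene Hba-a1 was called higher (0.67, limma adjusted p = 0.00573), with a count that a near-identical copy makes uncertain, and Lum, a proteoglycan of connective tissue, lower (-0.74, limma adjusted p = 0.0477). Hba-a1 was called with the GC trend removed as well (0.56) and Lum was not (-0.45). The part of these tissues in the results below was not tested.

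Cirbp and Rbm3 are described first. Cirbp (ENSMUSG00000045193) lies on the plus strand at chr10:80165985-80172786 of GRCm38, and Rbm3 (ENSMUSG00000031167) on the minus strand at chrX:8138975-8145880. Cirbp had values of 6977 and 6257 in the subjective day samples against 6346 and 6100 in those of objective day, so the conditions overlapped. Its log2 fold change was -0.087 (SE 0.072, limma adjusted p = 0.497), with a 95% confidence interval of the change from -16.2% to 5.81%. Rbm3 was measured at 1748 and 1720 in the subjective day samples against 1616 and 1520 in those of objective day. The objective day samples were both lower, and the lower subjective day sample was 6.44% above the higher objective day sample. The log2 fold change of Rbm3 was -0.15 (SE 0.065, limma adjusted p = 0.212), with an interval from -0.30 to 0.0057. The ratio of Cirbp to Rbm3 within each library was 3.99 and 3.64 in the subjective day samples against 3.93 and 4.01 in those of objective day, and these ranges overlapped. With the GC trend removed the estimates moved apart, to -0.17 for Cirbp (interval -0.34 to -0.0071) and to 0.17 for Rbm3 (interval 0.0052 to 0.33), with adjusted p values from limma's test of 0.350 and 0.355. Cirbp has a GC content of 53.7%, above that of 71.0% of tested genes, and Rbm3 one of 41.5%.

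The Cirbp promoter is shown because a short element known to mediate the response of this gene to mild cold was searched for in it. Windows from 250 bases before to 50 bases after the start were taken from RefSeq on GRCm38.p6 and were found for 8 of the 10 genes, with 9 windows among them, since Cirbp has 2. Rbm3 and Clk1 had no entry in the set of windows used here. The element TCCCCGCC, read on both strands, was present in the first Cirbp window, chr10:80167589-80167888 on the plus strand, and in that of Srsf7. It was present in 5.38% of all 32851 windows. Capitals mark it below.

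Cirbp: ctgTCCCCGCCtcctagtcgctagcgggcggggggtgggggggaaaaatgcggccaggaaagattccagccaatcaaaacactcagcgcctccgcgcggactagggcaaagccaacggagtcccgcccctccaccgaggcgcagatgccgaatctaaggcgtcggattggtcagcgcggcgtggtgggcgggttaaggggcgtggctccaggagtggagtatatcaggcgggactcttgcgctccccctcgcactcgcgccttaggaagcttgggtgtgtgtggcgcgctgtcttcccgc

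In Cirbp the element began 247 bases before the start and in Srsf7 it began 44 bases before it. The palindromic heat shock pair GAANNTTC was found in 0 of the 9 windows and in 7.86% of all windows. The E-box CACGTG, bound by the clock proteins, was found in 0 of the 9 and in 7.15% of all. The cAMP response element TGACGTCA was found in the windows of Clk4 and Tra2a and in 1.79% of all windows, and no match overlapped that of another motif. Each match or absence describes the letters in these windows only.

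The kinases Clk1 and Clk4 fell together in objective day. Clk1 (ENSMUSG00000026034) lies on the minus strand at chr1:58410189-58424066 and Clk4 (ENSMUSG00000020385) on the plus strand at chr11:51261730-51281766. Clk1 had values of 6328 and 7405 in the subjective day samples against 5121 and 4968 in those of objective day. The lowest subjective day sample was 23.6% above the highest objective day sample, while the 2 subjective day samples differed by 17.0% between themselves. For Clk1 the log2 fold change was -0.44 (SE 0.083, limma adjusted p = 0.0207). Clk4 had values of 1947 and 2390 in the subjective day samples against 1510 and 1664 in those of objective day. The conditions did not overlap, but the spread within subjective day, 22.8%, was larger than the 17.0% by which the lower of them exceeded the higher objective day sample. For Clk4 it was also -0.44 (SE 0.10, limma adjusted p = 0.0431). The call of Clk1 was lost without objective day replicate 2 (limma adjusted p = 0.0844), and that of Clk4 without either objective day sample or subjective day replicate 2, with limma adjusted p values up to 0.147. The log2 fold changes were then -0.42 for Clk1 and between -0.30 and -0.51 for Clk4. Within each library Clk1 was 3.25 and 3.10 times Clk4 in subjective day and 3.39 and 2.99 times in objective day, so that the balance of the 2 kinases overlapped between conditions. With the GC trend removed, neither was called, and the log2 fold changes were 0.036 (interval -0.11 to 0.18) for Clk1 and 0.066 (interval -0.12 to 0.25) for Clk4. These 2 genes have the lowest GC contents of the 10, 39.2% and 38.8%, and most of their annotated transcripts are unproductive. For Clk1, 7 of 13 annotated transcripts are retained introns and 2 are substrates of nonsense-mediated decay, and for Clk4 the numbers are 7 and 3 of 14. The longest coding transcript of Clk4 has a GC content of 43.3%, and with the trend taken on coding transcripts the log2 fold change of Clk4 was -0.23 (limma adjusted p = 0.366). The Clk4 promoter, chr11:51262864-51263163 on the plus strand, is shown with its cAMP response element in capitals, 65 to 58 bases before the start.

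Clk4: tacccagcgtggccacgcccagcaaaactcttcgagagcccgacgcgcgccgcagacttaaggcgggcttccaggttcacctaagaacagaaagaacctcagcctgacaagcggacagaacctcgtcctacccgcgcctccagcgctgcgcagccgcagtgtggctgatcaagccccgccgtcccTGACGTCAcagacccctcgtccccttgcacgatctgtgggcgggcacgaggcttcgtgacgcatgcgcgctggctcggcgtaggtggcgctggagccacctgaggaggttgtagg

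Among the 6 SR proteins of the 10 genes, Srsf3 had the largest change as deposited, and Srsf2 was the only one of the 10 genes called with the GC trend removed as well as before. Srsf3 (ENSMUSG00000071172), the smallest SR protein and a factor that also links splicing to mRNA export, lies on the plus strand at chr17:29032628-29043373. It had values of 2932 and 3078 in the subjective day samples against 2100 and 2278 in those of objective day. The lower subjective day sample was 28.7% above the higher objective day sample, against differences within conditions of 4.99% and 8.43%. The log2 fold change was -0.46 (SE 0.067, limma adjusted p = 0.00923), a change of -27.2% with an interval from -34.7% to -18.8%. With the GC trend removed it was -0.10 (interval -0.26 to 0.048, limma adjusted p = 0.565). With the trend taken on coding transcripts it was -0.0027. Srsf3 was the only one of the 5 called genes whose adjusted p from limma's test stayed under 0.05 with each sample left out in turn, where it ran from 0.00207 to 0.0479.

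Srsf2 (ENSMUSG00000034120), also called SC35 and the classical marker of nuclear speckles, lies on the minus strand at chr11:116849901-116853094. Its values were 4525 and 4774 in the subjective day samples against 3613 and 3632 in those of objective day. The objective day samples differed by 0.529% between themselves, and the lower subjective day sample was 24.6% above the higher of them. The log2 fold change was -0.36 (SE 0.060, limma adjusted p = 0.0139), a change of -22.1% with an interval from -29.3% to -14.1%. The GC content of its transcript, 49.97%, is near the median of 49.8% over tested genes, and with the GC trend removed the log2 fold change was -0.38 (SE 0.060, limma adjusted p = 0.0336). Without objective day replicate 1 or 2 its adjusted p was 0.0787 and 0.0809 at log2 fold changes of -0.36 in both. Srsf2 overlaps exons of Mettl23 (460 bases) and Mfsd11 (288 bases) on the opposite strand, and the strand setting of the counting is not given in the sources used here, so its count is uncertain there. The overlapping genes had lower values, 233 to 281 for Mettl23 and 551 to 672 for Mfsd11, and neither was called (limma adjusted p = 0.628 and 0.886). Those values do not show how reads from the shared bases were assigned. The promoters of Srsf2 (chr11:116853045-116853344, minus strand) and of Srsf3 (chr17:29032410-29032709, plus strand), shown as the gene called under both treatments of GC content and the gene called with each sample left out, held none of the 4 motifs.

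Srsf2: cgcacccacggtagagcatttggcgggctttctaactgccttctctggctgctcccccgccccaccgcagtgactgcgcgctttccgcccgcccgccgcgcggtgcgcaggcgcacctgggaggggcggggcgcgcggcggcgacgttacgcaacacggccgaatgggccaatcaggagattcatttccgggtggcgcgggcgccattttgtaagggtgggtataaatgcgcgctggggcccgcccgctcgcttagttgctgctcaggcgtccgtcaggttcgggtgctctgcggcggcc

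Srsf3: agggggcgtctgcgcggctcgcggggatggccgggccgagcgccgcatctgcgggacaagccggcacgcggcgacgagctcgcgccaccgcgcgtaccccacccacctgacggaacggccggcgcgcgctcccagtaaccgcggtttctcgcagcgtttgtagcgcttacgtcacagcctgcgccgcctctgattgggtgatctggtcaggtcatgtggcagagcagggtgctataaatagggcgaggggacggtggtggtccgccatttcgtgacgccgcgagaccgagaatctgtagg

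Srsf6 (ENSMUSG00000016921), which like Srsf5 has a second, degenerate RNA recognition motif, lies on the plus strand at chr2:162931528-162937121. It had values of 4749 and 4948 in the subjective day samples against 3963 and 3926 in those of objective day, without overlap. Its log2 fold change of -0.30 (SE 0.058, limma adjusted p = 0.0237) became -0.066 with the GC trend removed (limma adjusted p = 0.694). Without either objective day sample its call was lost (limma adjusted p up to 0.161) while the log2 fold change stayed at -0.30 and -0.29.

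Srsf5, Srsf7 and Tra2a had smaller differences that did not pass the threshold. Srsf5 (ENSMUSG00000021134, chr12:80945504-80950507, plus strand) was the SR member with the largest values, 9926 and 9999 in the subjective day samples against 8501 and 8798 in those of objective day. The estimate for Srsf5 was a log2 fold change of -0.20 (interval -0.35 to -0.062, limma adjusted p = 0.0854), and with the GC trend removed it was 0.20 (interval 0.044 to 0.36, adjusted p = 0.245). With the trend taken on coding transcripts it was -0.048, as the longest coding transcript of Srsf5 has a GC content of 44.6% and the longest transcript one of 40.1%. Srsf7 (ENSMUSG00000024097, chr17:80200080-80207307, minus strand), an SR protein with a zinc knuckle, had values of 2255 and 2420 in the subjective day samples against 1968 and 2055 in those of objective day. Srsf7 had an estimate of -0.22 on the log2 scale (interval -0.37 to -0.062, limma adjusted p = 0.0925) and 0.091 with the GC trend removed. Without subjective day replicate 1 it was called lower (-0.27, limma adjusted p = 0.0361). Tra2a (ENSMUSG00000029817, chr6:49243924-49264033, minus strand), a homolog of the fly transformer-2 splicing regulator, had values of 2346 and 2314 in the subjective day samples against 2061 and 2105 in those of objective day. The estimate for Tra2a was -0.16 on the log2 scale (interval -0.30 to -0.024, limma adjusted p = 0.141) and -0.029 with the GC trend removed. In all 3 genes both objective day samples lay under both subjective day samples, as they did in 28.2% of all genes tested. At the nearest samples subjective day was above objective day by 9.73% for Srsf7, 9.89% for Tra2a and 12.8% for Srsf5.

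**Figure D2:**
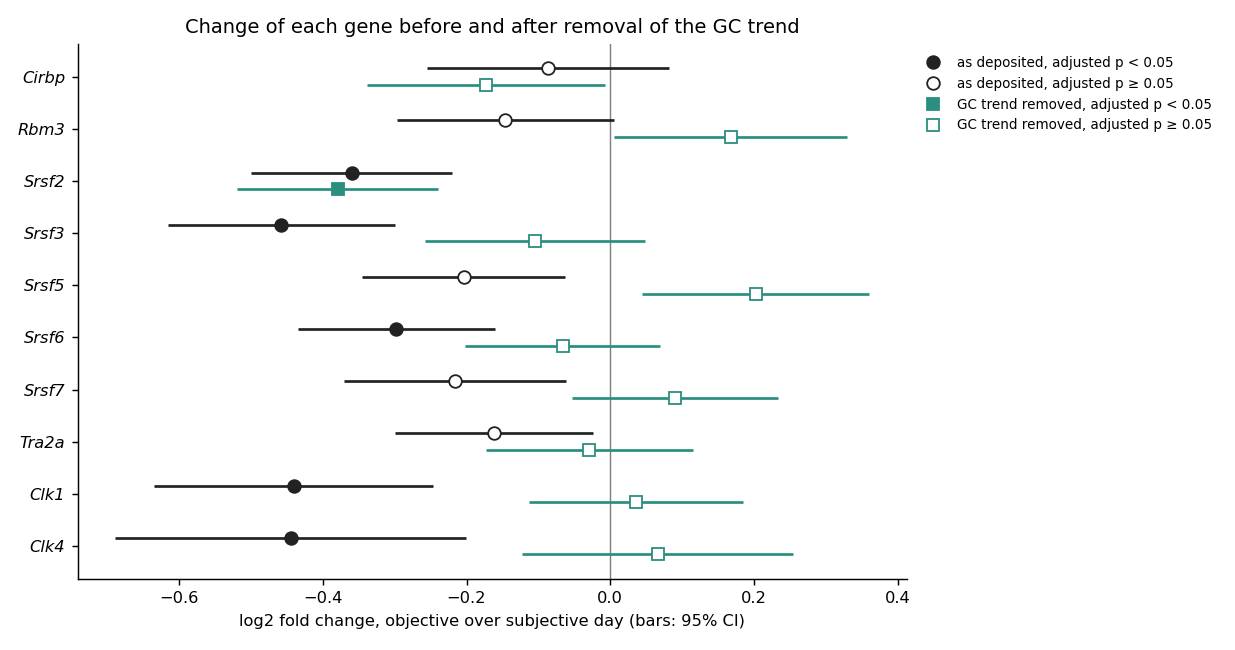
Log2 fold change of objective over subjective day (horizontal axis) with its 95% confidence interval for each of the 10 genes, from the deposited values (circles) and after each sample's GC trend was removed (squares), where filled symbols have a limma adjusted p under 0.05. All 10 circles lie below 0 and 5 are filled, while the squares lie on both sides of 0 and the one of Srsf2, at -0.38, is filled.

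Across the 10 genes the Spearman correlation of log2 fold change with GC content was 0.56 and the Pearson correlation 0.48, as a description of genes that share the same 4 libraries. Over all genes tested the Spearman correlation was 0.58. Cirbp and Srsf2 were the 2 members at or above the median GC content, and both had lower estimates after removal of the trend than before it, -0.17 against -0.087 and -0.38 against -0.36. The other 8 had higher estimates after it. With the mean value over samples, the Spearman correlation of the log2 fold change was 0.10 across the 10 genes.

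**Figure D3:**
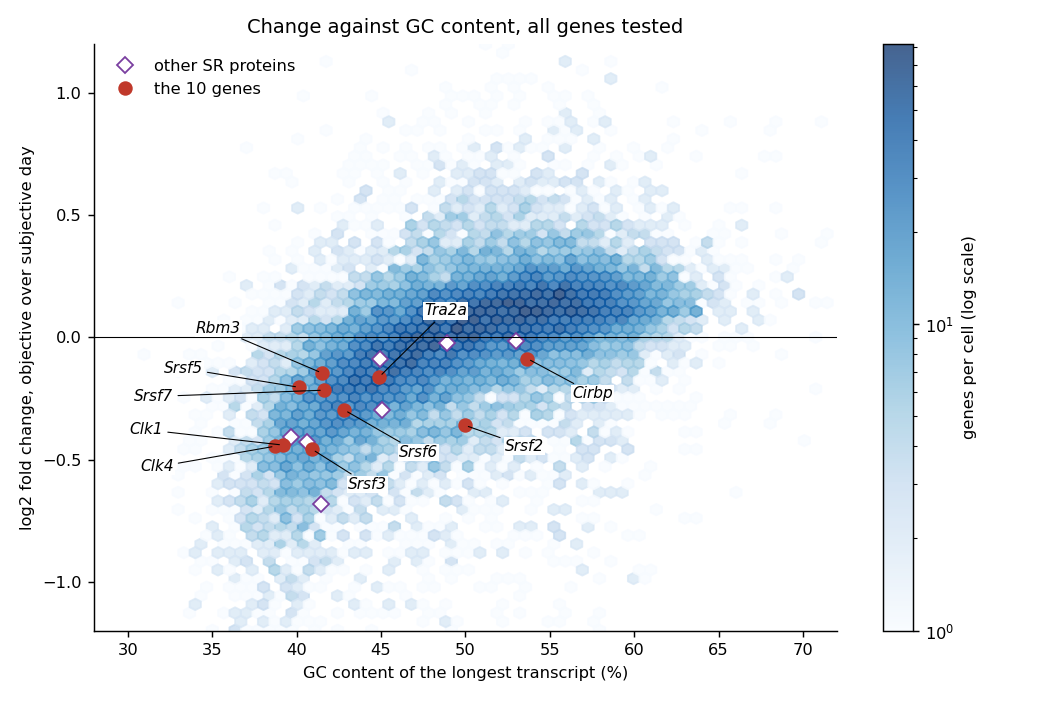
Log2 fold change of objective over subjective day against the GC content of the longest transcript (percent) for all tested genes (blue cells, darker with more genes, log scale), the 10 genes (red circles, labelled) and the 7 other SR proteins (open diamonds). Cells cover 17300 genes, and 236 lie beyond the axes. The genes of the lowest GC content lie mostly below 0, 8 of the 10 labelled genes lie at or under 45% GC, and Srsf2 lies at -0.36 at a GC content of 49.97%.

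Per kilobase of annotated exon, the levels of the 10 genes spanned from 335 for Tra2a to 2541 for Cirbp in subjective day (adjusted counts per kilobase, group means). Cirbp (2403 and 2679 per kilobase in the 2 samples) and Srsf5 (2489 and 2507) overlapped at the top. Srsf2 followed at 1530 and 1614, Srsf6 at 987 and 1029, Clk1 at 778 and 911 and Srsf7 at 635 and 682, each apart from its neighbours in this order. Srsf3 (371 and 390), Clk4 (336 and 412), Rbm3 (366 and 372) and Tra2a (333 and 338) formed the low end, where Clk4 overlapped with the other 3 and Srsf3 with Rbm3. In objective day Cirbp (2343 and 2437) was above Srsf5 (2132 and 2206) without overlap, and Srsf2 came next at 1221 and 1228. The order at the low end changed, with Rbm3 at 324 and 344 above Tra2a at 297 and 303, and with Srsf3 (266 and 288) and Clk4 (260 and 287) below them. Exon lengths here include retained introns of the annotation and lower the level of genes that have many. Per kilobase of the longest transcript, the subjective day level of Cirbp was 5009 and that of Srsf5 was 2861.

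The family holds 7 further SR proteins. Of these, 4 (57.1%, against 7.45% of all genes) were called lower and 0 higher, all 7 were below 0 and the median was -0.30 on the log2 scale. Without objective day replicate 2, 1 was called. Srsf10, an SR protein that represses splicing when heat shock dephosphorylates it, fell from 2401 and 2658 to 1621 and 1527, a log2 fold change of -0.68 (limma adjusted p = 0.00558). Removal of the GC trend took it to -0.36 (limma adjusted p = 0.0514), just outside the threshold. Srsf1, the founding SR protein, fell by 0.43 on the log2 scale, Tra2b, the paralog of Tra2a, fell by 0.41 and Srsf11 fell by 0.30, and none of the 4 was called with the GC trend removed. Srsf4 (-0.015), Srsf9 (-0.025) and Srsf12 (-0.090) did not pass the test. Over all 13 SR proteins, 7 were called lower, or 53.8% (7.45% of all genes, and 26.0% in the lowest GC quartile; median GC content of the 13, 42.8%), and the median was -0.30, which with the GC trend removed was -0.055 with 1 call.

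Of the 6 further kinases that act on SR proteins, 2 (33.3%, against 7.45% of all genes) were called lower and 0 higher, and with the GC trend removed, or without either objective day sample, 0 were called. Srpk2, a cytoplasmic SR kinase, had a log2 fold change of -0.29 as deposited and 0.090 with the GC trend removed (limma adjusted p = 0.0221 and 0.621). Prpf4b, a kinase of the spliceosome, had -0.26 and 0.094 (limma adjusted p = 0.0404 and 0.631). Clk2 (0.10) and Clk3 (0.21), the paralogs of Clk1 and Clk4, had estimates above 0 and were not called (limma adjusted p = 0.378 and 0.0923). The GC contents of Clk2 and Clk3 are 55.4% and 52.6%, and with the GC trend removed their log2 fold changes were 0.0021 and 0.13. The difference between the CLK paralogs was not tested.

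SR-related and accessory splicing proteins were mixed. Of the 18 tested of 21 listed, 4 (22.2%, against 7.45% of all genes) were called lower and 0 higher, and the median was 0.025. Without either objective day sample 1 was called. The 4 were Luc7l2 (-0.49), Luc7l3 (-0.29) and Luc7l (-0.27), which accompany the U1 particle to the 5′ splice site, and Rbm39 (-0.31), a partner of the U2AF complex. Of the 27 hnRNP proteins, many of which oppose SR proteins at exons, 6 (22.2%, against 7.45% of all genes and 26.0% in the lowest GC quartile) were called lower and 0 higher, and the median was -0.041 at a median GC content of 43.6%. Without objective day replicate 1 the count was 3 and without objective day replicate 2 it was 1. Ptbp2, the neuronal form of the polypyrimidine tract repressor, fell by 0.53, Syncrip by 0.49, Hnrnpd by 0.45 and Tardbp by 0.33 on the log2 scale. Once the GC trend was removed, Syncrip was at 0.18, Hnrnpd at -0.15 and Tardbp at -0.040. With the GC trend removed, 0 genes of these lists were called lower, and 2 of the 27 hnRNP genes were called higher (against 0.61% of all genes). These were Ptbp2 at 0.48 (limma adjusted p = 0.0262, GC content 34.2%) and Hnrnph1 at 0.51 (limma adjusted p = 0.0226). With the trend taken on coding transcripts, 0 of the 27 were called higher.

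Heat shock genes move against the cold-inducible genes when temperature changes, and 14 were compared. Of these, 2 (14.3%, against 7.45% of all genes) were called lower and 0 higher, and the median was -0.028. Without objective day replicate 2 the count was 0 in limma's test. Hsp90aa1, the inducible HSP90, had values of 29562 and 26170 in the subjective day samples against 20490 and 17459 in those of objective day, a log2 fold change of -0.56 (limma adjusted p = 0.0196). Dnaja1, a cochaperone of HSP70, fell by 0.43 on the log2 scale (limma adjusted p = 0.0116). The inducible HSP70 genes Hspa1a (-0.29, adjusted p = 0.0828) and Hspa1b (-0.27, adjusted p = 0.0964) were not called in limma's test, and as near-identical copies their counts are uncertain. Removal of the GC trend left 0 of the 14 called in limma's test. The log2 fold changes were then -0.37 for Hsp90aa1, -0.089 for Dnaja1, -0.41 for Hspa1a and -0.38 for Hspa1b.

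**Figure D4:**
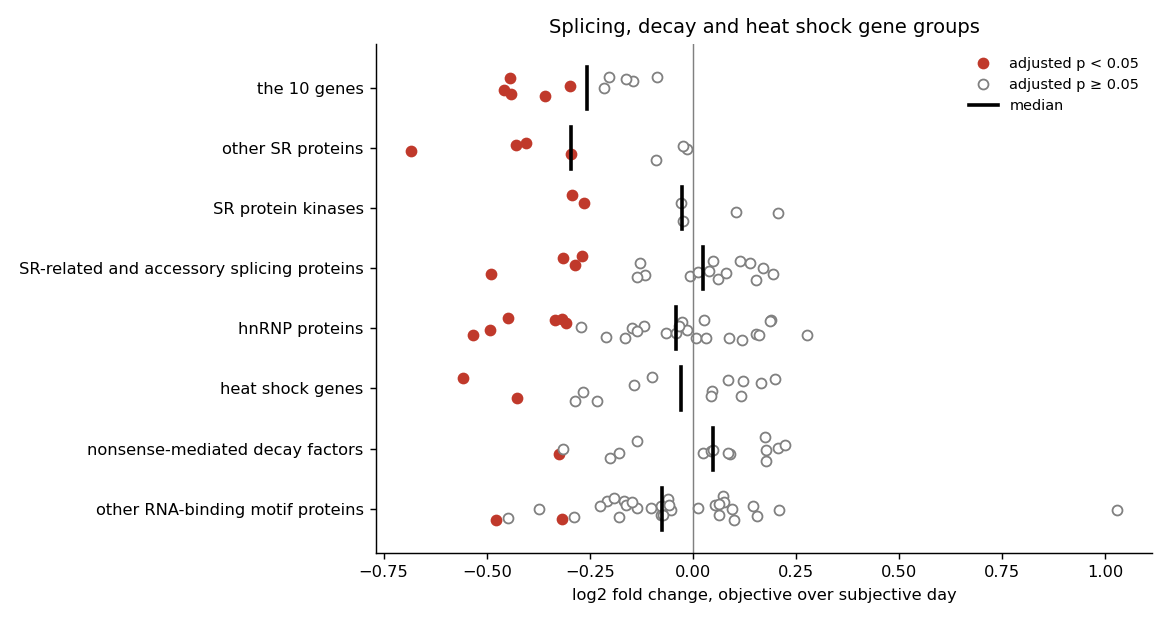
Log2 fold change of objective over subjective day (horizontal axis) for the 10 genes and 7 related groups, with filled points for a limma adjusted p under 0.05, open points for the others and a bar at each group's median; vertical scatter within a row has no meaning. The medians of the 10 genes (-0.26) and of the other SR proteins (-0.30) lie to the left, and those of the other 6 groups lie between -0.074 and 0.048, and no filled point lies above 0; with the GC trend removed the first 2 medians were 0.0036 and -0.055.

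Reads that fit several places can also bear on these values. Stretches of 50 bases, the read length, were compared between the longest transcript of each gene and the transcripts of all other genes. The share found elsewhere was 0% for Cirbp, Srsf6, Tra2a, Clk1 and Clk4 and 0.892% for Srsf7. It was 35.2% for Srsf2, within its antisense neighbours, 18.3% for Srsf3, 14.8% for Rbm3 and 11.2% for Srsf5, so that the counts of these 4 genes are uncertain in those parts.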

How the data were processed

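Polyadenylated RNA of 4 samples was sequenced on a single lane as single reads. According to the study's methods and the submitters' processing notes, alignment to an Ensembl mouse annotation used TopHat2 2.0.9 with Bowtie2 2.1.0, reads were assigned to genes with HTSeq, and edgeR served for the authors' comparison. The filter, the normalization and the strand setting are not given in the sources used here. Each deposited value is a signal with decimals; from the near-equal column totals it was taken to be a gene count scaled by the authors to 1 library size. Sequencing depth is therefore unknown, and no count test was run. Deposited columns of log2 fold change, mean log2 CPM, p-value and adjusted p-value hold the authors' own comparison and were not used.

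Genes that reached 10 in 2 or more samples were compared on log2(value + 1) with limma 3.58.1 in R 4.3.3, with a variance prior that follows mean expression and Benjamini-Hochberg adjustment over all genes tested at 0.05. The pseudocount understates changes of low values. An exact permutation test of a single gene (two-sided, 2 samples per condition) has 0.333 as its smallest p, so calls rest on the variance shared across genes. GC content came from the longest transcript in GENCODE M21 (GRCm38), known for 98.6% of tested genes. For each sample, the deviations from the gene means were regressed locally on GC content (span 0.3) and the fitted trend was taken off; differences of biological origin that run with GC content are lost with it. The fits were tested on simulated data. The 10 genes and the lists (other SR proteins, SR protein kinases, SR-related proteins, hnRNP proteins, nonsense-mediated decay factors, heat shock genes, other RNA-binding motif proteins and the tissue markers) were chosen with earlier results of these data known. Genes named are the 10, from each list of related genes up to 4 called genes in each direction with the smallest adjusted p (where none is called, the gene with the smallest), and from the marker lists those needed to say which defining markers are near 0 or move. Of the rod list all 6 are named, though none was called. Other genes named (Clk2, Clk3, Srsf4, Srsf9, Srsf12, Hspa1a, Hspa1b, Hnrnph1, Mettl23 and Mfsd11) were chosen after their values were seen. Figures were drawn with matplotlib 3.10.9.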

Additional observations from a re-analysis of the deposited data

How the results depend on the processing

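The 5 calls and the direction of all 10 genes held under TMM and median-of-ratios scaling, no filter, a filter on the mean, and pseudocounts of 0.5 and 10. With a constant variance prior, limma called 0 of the 10 and 0 genes in all in either direction, while 6 of the 10 and 3586 genes had an unadjusted p under 0.05. With the replicate block, 7 were called, Srsf5 and Srsf7 in addition, and of all genes 2331 lower and 1282 higher (lower and higher among related genes: other SR proteins 4 and 0, kinases 2 and 1, SR-related 4 and 3, hnRNP 9 and 3, heat shock 5 and 0, decay factors 2 and 4, other RNA-binding motif proteins 5 and 0). The sources do not say whether samples of 1 number share anything. Same-numbered samples deviated together across genes (correlation 0.319), and the block ended no call among the 10. With the GC trend removed, 1 member was called lower, and 116 genes lower and 107 higher in all. Rbm3 (0.17), Srsf5 (0.20), Srsf7 (0.091), Clk1 (0.036) and Clk4 (0.066) changed sign, with or without the block. GC removal with the replicate block called 2 members lower (Srsf2 and Cirbp) and 1 higher (Srsf5), and 700 genes lower and 866 higher (in the same order of lists 2 and 0, 0 and 0, 2 and 2, 1 and 10, 3 and 0, 0 and 1, 0 and 4). On coding transcripts, an alternative chosen after seeing the data, 1 member (Srsf2), 91 lower and 68 higher genes were called, and Rbm3 (0.19), Srsf7 (0.11) and Tra2a (0.013) changed sign. With each sample left out, the lone sample of a condition being assumed to vary like the others, 1 to 6 members and 613 to 1781 genes were called lower and 38 to 997 higher, all 10 members staying below 0. Without objective day replicate 1, Srsf3 and Clk1 were called, and without objective day replicate 2, Srsf3. Clk4 was also lost without subjective day replicate 2, and without subjective day replicate 1 Srsf7 was called in addition. The number of samples limits the precision of each gene.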

Other observations

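Nonsense-mediated decay removes unproductive transcripts of SR and CLK genes. Of its 15 factors tested, 1 was called lower (6.67%, against 7.45% of all genes) and 0 higher, so that the share was near that of all genes, and the median was 0.048 on the log2 scale. The 1 was Upf3b, an X-linked factor that joins the exon junction complex to the decay machinery, with values of 3131 and 3128 in the subjective day samples against 2550 and 2449 in those of objective day (-0.32 on the log2 scale, limma adjusted p = 0.0182). With the GC trend removed its estimate was -0.088 and it was not called, nor was any of the 15 without either objective day sample in limma's test. With subjective day replicate 1 left out, more of the 15 were called in both directions, as were more genes over the whole table.

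Of 32 other RNA-binding motif proteins tested of 33 listed, 2 were called lower (6.25%, against 7.45% of all genes) and 0 higher, also near the share of all genes, and the median was -0.074 on the log2 scale. They were Rbm41 (-0.48, limma adjusted p = 0.0210) and Rbm25 (-0.32, limma adjusted p = 0.0310), a splicing regulator of the U1 particle. With the GC trend removed the estimates were 0.044 for Rbm41 and 0.31 for Rbm25, and neither was called. Both calls were also lost when either objective day sample was left out. With subjective day replicate 1 left out, more of the 32 were called lower, as were more genes over the whole table.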
